A study of Mus musculus with 8 samples.

Results

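The genes described here encode the IL-12 family cytokines and their receptors, measured in intestinal migratory dendritic cells with and without a survival transgene. They are 9 genes of the 22180 tested, 5 cytokine subunits (Il12a, Il12b, Il23a, Ebi3 and Il27) and 4 receptor chains (Il12rb1, Il12rb2, Il27ra and Il6st), chosen by name. Each was read from a probe set whose annotation names that gene alone, and, where a gene had several, from the one with the highest mean over all 8 arrays. Ebi3 was the only gene of the 9 with a second such probe set. The cells were CD103+ CD11b+ conventional dendritic cells (cDC) sorted from the mesenteric lymph nodes of male C57BL6 mice, 8 weeks old and fed control chow. The 4 arrays of the hBcl-2 group came from mice that express human BCL2, a protein that blocks mitochondrial apoptosis, under the promoter of CD11c, and the 4 wild-type (WT) arrays came from littermate controls. That promoter is active in dendritic cells as a class and also in some other leukocytes, so the sorted subset is not the only cell that carries the protein. An array holds material pooled from 2 to 3 samples, and no source says which animals make up a pool, so errors and p-values measure the spread between pools.

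IL-12 family cytokines are secreted pairs of chains that share partners. Il12a with Il12b makes IL-12, and Il23a with Il12b makes IL-23. Il27 with Ebi3 makes IL-27, and Il12a with Ebi3 makes IL-35. Dendritic cells secrete IL-12, IL-23 and IL-27 after microbial or CD40 signals, and T and NK cells read them through pairs of receptor chains that signal by JAK kinases and STAT factors. In the intestine CD103+ CD11b+ cDC are known for supporting T helper 17 responses, and IL-23 is one of the cytokines linked to them.

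Values are log2 signals, so a difference of 1 is a doubling. Arrays have no read depth, and their number, 4 a group, limits the precision. A signal was called dim below 5.38, the 95th percentile of 1105 olfactory receptor genes, which dendritic cells are not known to use. By that measure Il12a, Il23a and Il12rb1 were dim in both groups, and the other 6 genes were not. Levels of different genes were not set against each other, because each probe set has its own sensitivity. Transgenic replicate 4 stood apart from the rest: its correlation with the other arrays of its genotype averaged 0.970, where the other transgenic arrays gave 0.977 to 0.979 and the wild-type arrays 0.983 to 0.985. The cDC markers Flt3 (11.11 and 10.74), Itgax, which encodes CD11c (9.05 and 9.22), and H2-Ab1 (13.00 and 12.75) were bright in wild-type and transgenic arrays. Of the 7 general cDC markers measured 0 passed, while 3 (Zbtb46, Flt3 and H2-Ab1) were lower and 0 higher at an unadjusted p below 0.05 in limma. Itgam, the gene of the sorting marker CD11b, was near the dim level (5.57 and 5.58). Among 8 CD11b+ cDC genes Cd101 rose (difference 1.13, SE 0.19) and Esam fell (-0.62, SE 0.12; limma adjusted p = 0.0215 and 0.0320). Of the markers of other cells, B and plasma cell genes averaged 5.89 to 6.32 in wild type and 6.05 to 6.59 in transgenic arrays, plasmacytoid dendritic cell genes 5.60 to 6.48 and 5.89 to 7.30, and monocyte and neutrophil genes 4.69 to 5.01 and 4.72 to 5.78, and 0 of these 20 genes passed in limma, 3 of them being higher at an unadjusted p below 0.05. Over all genes 1.69% passed in limma and 13.2% had an unadjusted p below 0.05, in either direction. In bulk samples, fewer cells of a type and less RNA per cell cannot be told apart.

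The start regions of Ebi3 and Il12b are shown because these genes encode the shared chains of the family and behaved differently in the comparison. Each run is the 250 bases before the start of the gene in RefSeq on GRCm38.p6, at chr17:55952373-55952622 (+ strand) for Ebi3 and chr11:44399813-44400062 (+ strand) for Il12b, written 5′ to 3′, and capitals mark a match to the kappaB motif of NF-kB.
Ebi3: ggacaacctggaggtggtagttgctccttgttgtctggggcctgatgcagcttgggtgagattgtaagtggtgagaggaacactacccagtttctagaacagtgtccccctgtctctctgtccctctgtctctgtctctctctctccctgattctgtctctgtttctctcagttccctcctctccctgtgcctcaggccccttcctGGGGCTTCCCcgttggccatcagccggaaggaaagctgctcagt
Il12b: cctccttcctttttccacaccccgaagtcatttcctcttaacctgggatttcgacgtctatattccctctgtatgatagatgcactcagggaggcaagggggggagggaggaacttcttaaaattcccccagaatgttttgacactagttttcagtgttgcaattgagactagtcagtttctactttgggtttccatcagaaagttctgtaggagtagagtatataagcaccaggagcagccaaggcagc
The promoter table held windows for 5 of the 9 genes, namely Il12a (at both of its starts), Il12b, Ebi3, Il12rb2 and Il6st. They were searched on both strands for the kappaB motif, for the AP-1 motif TGANTCA and for the interferon-stimulated response element (GAAA, any 2 bases, GAAA). The Ebi3 window held 1 kappaB match, GGGGCTTCCC, from base 44 to base 35 before the start, which reads as a match on both strands. None of the 3 motifs was found in the other windows in the letters searched, and a site spelled otherwise would be missed. Among all 32851 promoter windows of this length, 7.25% held the kappaB motif, 6.75% the AP-1 motif and 2.98% the interferon element. A match of letters is a description of the window and not evidence that a factor binds there. Equally, the lack of a match in the Il12b window is not evidence that it holds no NF-kB site.

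Of the 5 cytokine subunits, Ebi3 fell in transgenic cDC, and Il27, Il12a, Il23a and Il12b did not pass. Ebi3, the chain shared by IL-27 and IL-35, was 3.43-fold lower. Over all 22180 genes 1.69% passed limma's test at an adjusted p of 0.05 and 0.848% passed in the lower direction, against 1 of the 9 family genes. All 5 subunits had a log2 difference below 0, as did 50.3% of all genes, and their median was -0.30 against -0.00 over all genes. That median is the value of Il12a, which was dim in both groups, as was Il23a. No family gene was higher past the threshold in limma, against 0.839% of all genes, and 0 were higher and 2 lower, Ebi3 and Il27, at an unadjusted p below 0.05, which 13.2% of all genes reached in either direction.

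**Figure D1:**
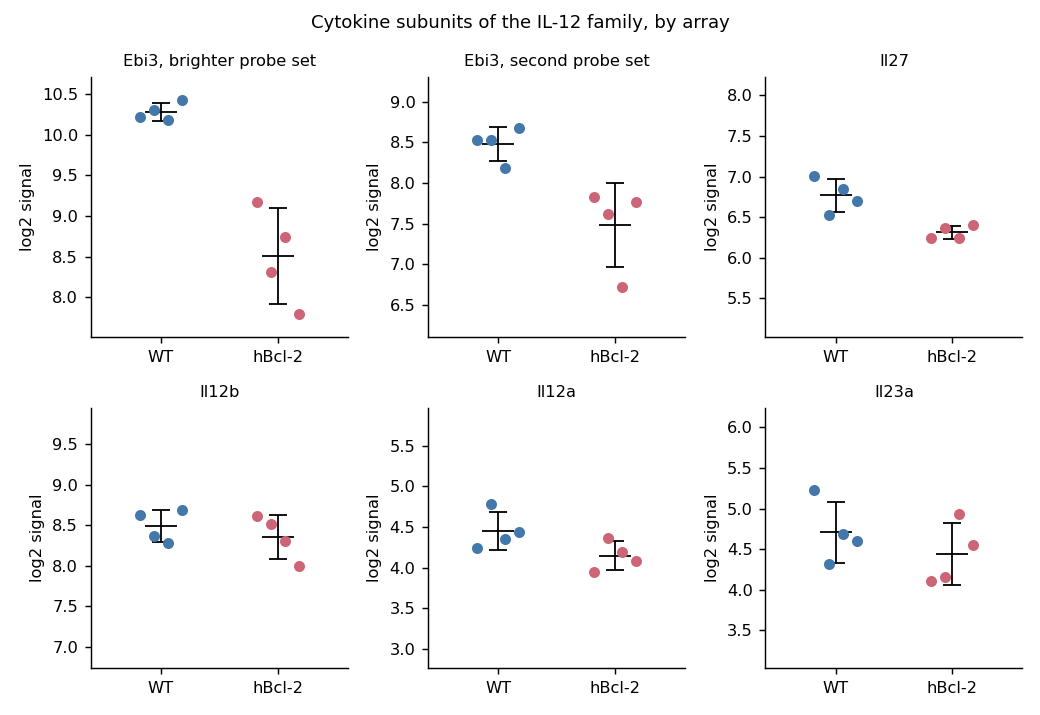
Log2 signal of the cytokine subunits on each array, with WT in blue, hBcl-2 in red, and bars for the mean and SD of 4 arrays. Both Ebi3 probe sets were lower on all 4 transgenic arrays, Il27 differed by less and without overlap, and Il12b, Il12a and Il23a overlapped.

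Ebi3 was at 10.22, 10.31, 10.18 and 10.43 on wild-type replicates 1 to 4 and at 9.18, 8.31, 8.75 and 7.79 on transgenic replicates 1 to 4. The groups were 1.01 apart at their nearest arrays, and the transgenic arrays ran over 1.38 against 0.25 for wild type. The difference was -1.78 (SE 0.25, 95% interval -2.33 to -1.23; limma adjusted p = 0.00967), which placed Ebi3 at rank 54 of all genes by p. An exact two-sided permutation test of Ebi3 over the arrays gave p = 0.0286, the smallest that 70 assignments allow, and the same p for Il27 and for Il6st, since it is reached by any gene whose groups do not overlap. Transgenic replicate 4, the array that stood apart, had the lowest value, and without it the difference was -1.54 (adjusted p = 0.00815 in limma). The mean of 7 general cDC markers was also lowest on that array, at 10.92 against 11.15 to 11.31 on the other transgenic and 11.25 to 11.38 on the wild-type arrays, and its part in the Ebi3 values was not tested.

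The second Ebi3 probe set gave the same direction with a smaller size. It was at 8.52, 8.53, 8.19 and 8.68 in wild type and at 7.83, 7.62, 6.72 and 7.77 in transgenic arrays, so its groups did not overlap either. Here transgenic replicate 3 was lowest, not replicate 4. The difference of -0.99 (SE 0.23) did not pass when every single-gene probe set was tested on its own (limma adjusted p = 0.0690 over 23521 probe sets). The mean of both probe sets passed, with a difference of -1.39 (adjusted p = 0.00633 in limma). Without moderation of the variance the brighter probe set did not pass (adjusted p = 0.106).

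Il27 encodes the chain that joins Ebi3 in IL-27. It was at 7.01, 6.53, 6.84 and 6.70 in wild type and at 6.25, 6.36, 6.25 and 6.40 in transgenic arrays. The groups did not overlap, with 0.13 between the nearest arrays, and the transgenic arrays lay within 0.15 of each other. The difference of -0.46 (SE 0.12, 95% interval -0.73 to -0.18) did not pass over all genes (limma adjusted p = 0.108). It stayed between -0.54 and -0.38 under every alternative run, with adjusted p from 0.0670 to 0.247 in limma.

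Il12b, the chain shared by IL-12 and IL-23, was at 8.63, 8.37, 8.29 and 8.69 in wild type and at 8.61, 8.51, 8.31 and 7.99 in transgenic arrays. Transgenic replicate 4 lay below every wild-type array and the other 3 lay within the wild-type range. The difference was -0.14 (SE 0.16, 95% interval -0.48 to 0.21; limma adjusted p = 0.794), and without that array it was -0.02 (adjusted p = 0.975 in limma). The interval reaches to -0.48, short of the difference measured for Ebi3. The mean of the 7 measured cDC1 markers, another subset that makes IL-12, ran from 7.28 to 7.76 in wild type and from 6.85 to 8.20 in transgenic arrays and was also lowest on transgenic replicate 4; its part in the Il12b values was not tested.

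The chains that pair with Il12b were dim. Il12a ran from 4.24 to 4.78 in wild type and from 3.95 to 4.36 in transgenic arrays, a difference of -0.30 (SE 0.14; limma adjusted p = 0.402). Il23a ran from 4.31 to 5.22 and from 4.11 to 4.93, a difference of -0.27 (SE 0.22; limma adjusted p = 0.699). Both overlapped between groups, and signals this dim are poorly separated from background, so neither value shows whether the cells make the transcript.

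Within each array the log2 ratio of the chains of a cytokine was formed, and its change between groups was compared for the 4 pairs. The ratio of Ebi3 to Il27 was lower by 1.32 in transgenic arrays than in wild type, with p = 0.0286 in an exact two-sided permutation test and adjusted p = 0.0571 over the 4 pairs. The other 3 pairs contain Il12a or Il23a, which were dim in both groups, so those ratios have no settled size and none is given here. No pair passed after adjustment. With 70 assignments 0.0286 is the smallest p possible, and over 4 pairs it cannot pass unless most of them reach it. The lack of a pass is therefore no evidence that the ratio was unchanged. A ratio within an array compares only how unequally its chains moved.

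Of the 4 receptor chains none passed, against 1.69% of all genes, and 0 had an unadjusted p below 0.05 in limma. Their median difference was -0.02.

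**Figure D2:**
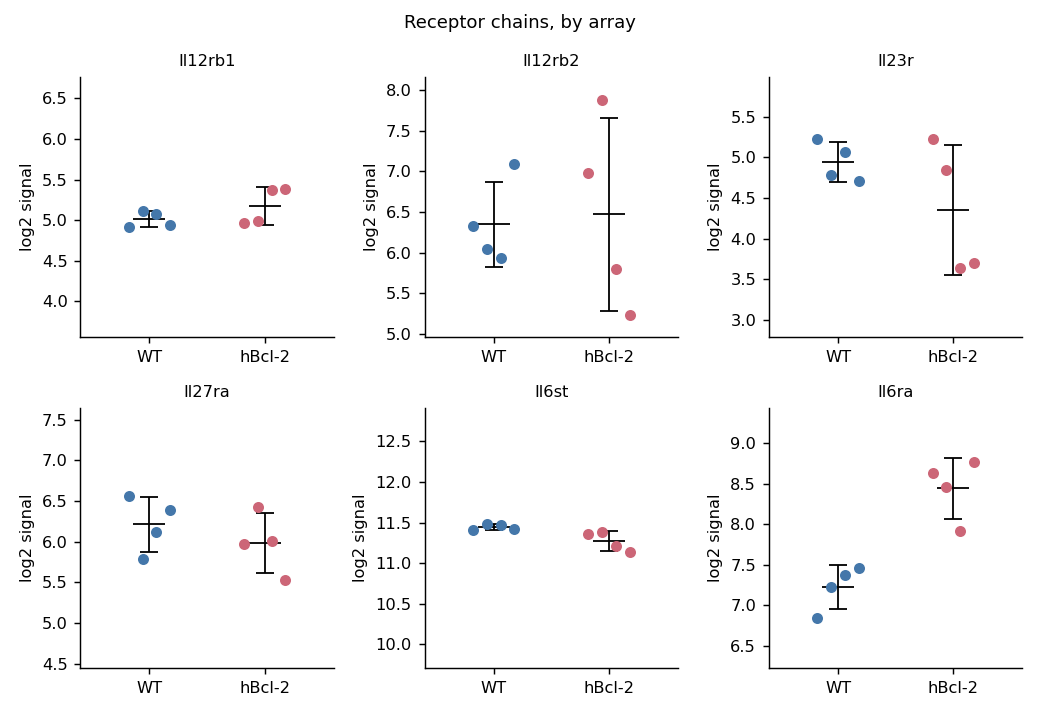
Log2 signal of the 4 receptor chains and of the partner chains Il23r and Il6ra on each array, with WT in blue, hBcl-2 in red, and bars for the mean and SD of 4 arrays. Il6ra was higher on every transgenic array, Il6st was slightly lower on every one, and Il12rb2 and Il23r spread more widely in the transgenic group.

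Il6st encodes gp130, the signalling chain that IL-27 and IL-35 share with IL-6. It was at 11.40, 11.49, 11.47 and 11.42 in wild type and at 11.36, 11.39, 11.21 and 11.14 in transgenic arrays. The groups did not overlap but their nearest arrays were only 0.02 apart. The difference of -0.17 (SE 0.10, 95% interval -0.40 to 0.06) did not pass (limma adjusted p = 0.551). The arrays of the groups were fully separated for 8.94% of all genes, and for 4.94% every transgenic array lay below every wild-type array, against 3 of the 9 family genes, Ebi3, Il27 and Il6st.

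Il27ra, the chain that gives gp130 its specificity for IL-27, ran from 5.79 to 6.57 in wild type and from 5.52 to 6.43 in transgenic arrays, a difference of -0.23 (SE 0.21; limma adjusted p = 0.729). Il12rb1, the chain common to the IL-12 and IL-23 receptors, was dim, with 4.92 to 5.12 in wild type and 4.96 to 5.39 in transgenic arrays (difference 0.16, SE 0.13; limma adjusted p = 0.684). Both genes overlapped between groups.

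Il12rb2, the second chain of the IL-12 receptor and best known from T and NK cells, varied most among the family genes between arrays of the same group. It was at 6.32, 6.05, 5.93 and 7.10 in wild type and at 6.98, 7.88, 5.79 and 5.24 in transgenic arrays. The transgenic arrays alone ran over 2.65, from below to above the whole wild-type range. The mean difference of 0.12 (SE 0.50, 95% interval -0.99 to 1.24; limma adjusted p = 0.955) therefore has a wide error. It was -0.35 without transgenic replicate 2, -0.05 without transgenic replicate 1, -0.02 without wild-type replicate 3, 0.37 without wild-type replicate 4, 0.35 without transgenic replicate 3 and 0.54 without transgenic replicate 4.

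NK cell markers were highest on some of the same arrays. Ncr1, which encodes the NK cell receptor NKp46, was at 4.90, 5.91, 6.46 and 8.47 in wild type and at 6.75, 8.41, 5.77 and 5.36 in transgenic arrays. The mean of the 7 measured NK and innate lymphoid markers ran from 6.25 to 7.72 in wild type and from 6.69 to 8.00 in transgenic arrays, and 2 of the 7, Klrb1c and Eomes, were dim in both groups. Wild-type replicate 4 and transgenic replicates 1 and 2 were the highest arrays for Il12rb2 and for that mean. None of the 7 markers passed between the groups, and 0 had an unadjusted p below 0.05 in limma. The part of such cells in the Il12rb2 values was not tested. The mean of the 7 measured T cell markers was 5.20, 4.95, 5.08 and 5.48 in wild type and 5.07, 5.14, 5.03 and 5.02 in transgenic arrays, highest on wild-type replicate 4. Among these markers Cd2, which NK cells also express, was highest on the same arrays as Il12rb2, with 6.55 on wild-type replicate 4 and 5.86 and 6.28 on transgenic replicates 1 and 2. Other T cell markers went otherwise. Cd3d was highest on transgenic replicate 4 (6.12), where Il12rb2 was lowest, and Cd3e was lowest on transgenic replicate 2 (5.04), where Il12rb2 was highest. Of the 7 T cell markers 2, Cd3g and Themis, were dim in both groups. The part of T cells in the Il12rb2 values was not tested either.

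**Figure D3:**
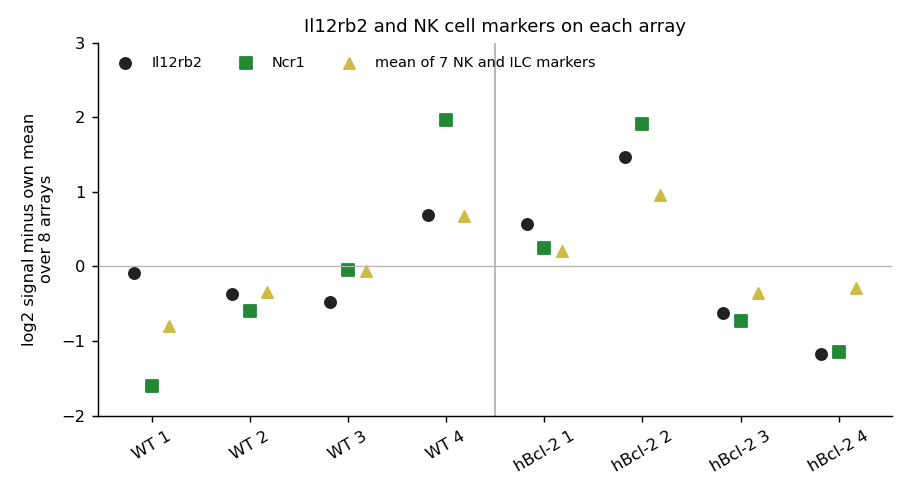
Log2 signal of Il12rb2, of Ncr1 and of the mean of 7 NK and innate lymphoid cell (ILC) markers on each array, each minus its own mean over the 8 arrays. Il12rb2 was 0.69 above its mean on WT 4, 0.57 on hBcl-2 1 and 1.47 on hBcl-2 2, and the marker mean was also above its own mean on those arrays.

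Chains and ligands related to gp130 or to the family, outside the 9 genes, were given by a list of 14, of which 12 were measured. Il6ra rose, where 0.839% of all genes passed in the higher direction, and the other 11 did not pass. The median of the list was 0.21 against -0.00 over all genes. Il6ra binds IL-6 and joins gp130. It was at 6.85, 7.22, 7.38 and 7.46 in wild type and at 8.63, 8.46, 7.92 and 8.77 in transgenic arrays, with no overlap. Its rise was 2.32-fold, a difference of 1.21 (SE 0.20; limma adjusted p = 0.0181). It did not pass without wild-type replicate 1 (adjusted p = 0.0558) or 2 (adjusted p = 0.0612 in limma). The macrophage marker mean was also higher on every transgenic array, at 6.32 to 6.68 against 6.15 to 6.27, with 1 of 7 markers, Adgre1, past the threshold. Adgre1 moved most (difference 1.29, SE 0.19), and the markers did not move as a set. C1qa was lower on all 4 transgenic arrays (-0.17, SE 0.10), and Fcgr1 was at -0.03 (SE 0.13). Fcgr1 and Mertk, 2 of the 7, were dim in both groups, while Cd68 (9.85 and 10.18), C1qa (6.44 and 6.27), C1qb (6.44 and 6.55) and Adgre1 (6.12 and 7.41) were above the dim level in wild-type and transgenic arrays. The part of such cells in the Il6ra values was not tested.

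Il23r, the IL-23 specific chain, was dim, and its transgenic arrays split into 5.22 and 4.85 on replicates 1 and 2 and 3.64 and 3.70 on replicates 3 and 4, against 4.71 to 5.23 in wild type (difference -0.59, SE 0.33; limma adjusted p = 0.503). At the ends of the partner list, Lif was at -0.25 (SE 0.22) and Il31ra at 0.42 (SE 0.15), and neither passed.

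**Figure D4:**
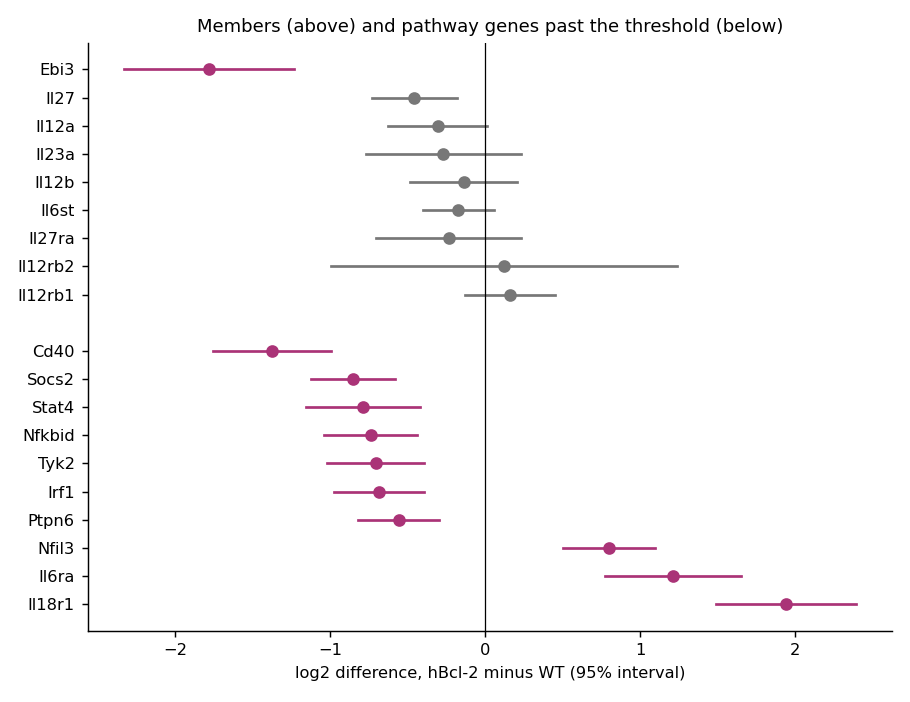
Log2 difference, hBcl-2 minus WT, with its 95% interval for the 9 family genes (above) and for the pathway genes past the threshold (below), with coloured points for adjusted p below 0.05. Ebi3 at -1.78 stands apart from the other family genes, which lie between -0.46 and 0.16.

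Among the JAK-STAT genes that carry these signals, Stat4, Tyk2, Socs2 and Ptpn6 fell and 0 rose. The list had 19 measured genes, of which 4 (against 0.848% of all genes) passed in the lower direction and 15 did not pass. A difference below 0 was seen for 17 of the 19 (50.3% of all genes), and 9 had groups that did not overlap (8.94% of all genes). The median was -0.32 against -0.00 over all genes. Shares over all genes include dim genes, and none of the 19 was dim. When only genes with a mean of 6 or more were tested, 308 passed in the lower direction and 218 in the higher. Stat4, the main STAT of the IL-12 receptor, was at 11.26, 11.22, 11.13 and 11.07 in wild type and at 10.87, 10.15, 10.41 and 10.09 in transgenic arrays. All transgenic arrays lay below all wild-type arrays, and the difference was -0.79 (SE 0.17; limma adjusted p = 0.0462).

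Tyk2, the kinase bound to Il12rb1, was at 10.66, 10.60, 10.66 and 10.60 in wild type and at 10.22, 9.60, 10.08 and 9.79 in transgenic arrays. The wild-type arrays lay within 0.06 of each other, and the transgenic arrays were all lower (difference -0.71, SE 0.14; limma adjusted p = 0.0380). Ptpn6, the phosphatase SHP-1, which restrains JAK signalling, had a difference of -0.55 (SE 0.12; limma adjusted p = 0.0480), and Socs2, an inhibitor of cytokine receptors, one of -0.85 (SE 0.12; limma adjusted p = 0.0105). Stat4 and Tyk2 did not pass without any 1 of the wild-type arrays or of transgenic replicates 2, 3 and 4 (adjusted p from 0.0750 to 0.133 and from 0.0582 to 0.111 in limma), and Ptpn6 did not pass without any 1 of the 8 arrays (0.0608 to 0.126). With each array centred on its median Stat4 (adjusted p = 0.0519) and Ptpn6 (0.0514) did not pass in limma, nor did Ptpn6 after quantile normalization again (0.0707) or Stat4 with array weights (0.0544).

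The other kinases and STATs of the family did not pass. Jak2, which pairs with Tyk2 at the IL-12 receptor, was at -0.24 (SE 0.11), Jak1, used by gp130, at -0.17 (SE 0.13), and Stat3, used by IL-23 and IL-27, at -0.18 (SE 0.12), with limma adjusted p of 0.381, 0.650 and 0.620. Larger falls elsewhere in the list did not pass either. Pias3 was at -1.23 (SE 0.27), Stat2 at -0.85 (SE 0.25), Stat6 at -0.71 (SE 0.20) and Stat5a at -0.70 (SE 0.18). For each of them every transgenic array lay below every wild-type array, with limma adjusted p of 0.0549, 0.141, 0.113 and 0.0869. The fall was thus not particular to Stat4 and Tyk2. The highest members of the list were Socs1, a feedback inhibitor of JAK kinases (0.34, SE 0.10), and Pias4 (0.04, SE 0.14), and neither passed.

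**Figure D5:**
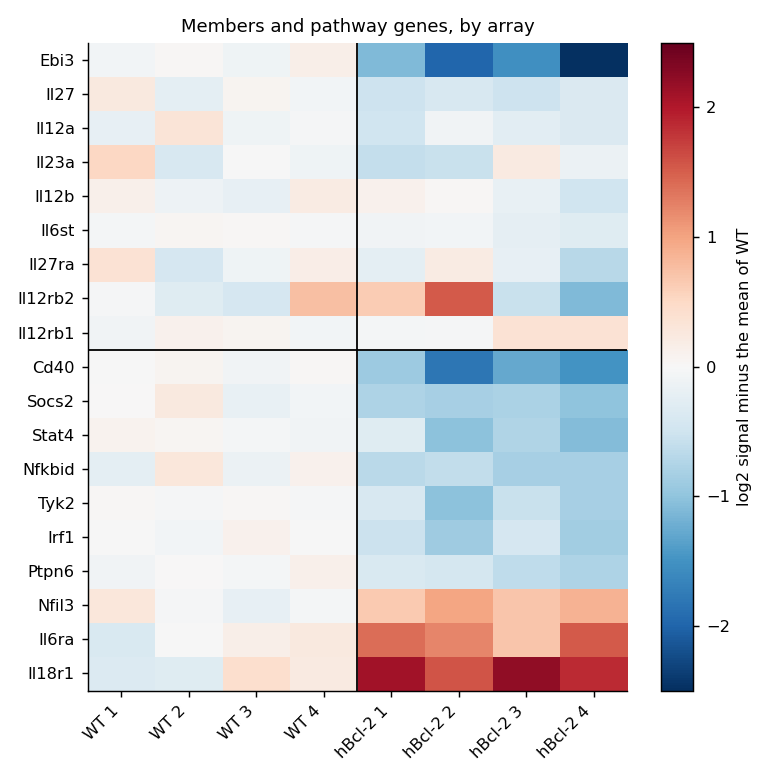
Log2 signal minus the mean of the 4 WT arrays for the family genes (above the line) and the pathway genes past the threshold (below it), by array, from blue (lower) to red (higher). The lowest cell is -2.49, Ebi3 on hBcl-2 4, and Il12rb2 is the row in which transgenic arrays lie both below and above the whole wild-type range.

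Receptors and adaptors that switch IL-12 family genes on came next. Of 18 measured, Cd40 fell, 0 rose and 17 did not pass, with a median of -0.14. Over all genes 0.848% passed in the lower and 0.839% in the higher direction, with a median of -0.00. Cd40, through which T cells induce IL-12 in dendritic cells, was at 10.62, 10.70, 10.56 and 10.67 in wild type and at 9.72, 8.83, 9.36 and 9.15 in transgenic arrays, a difference of -1.37 (SE 0.17; limma adjusted p = 0.00644). Tlr1 (-0.59, SE 0.14), a partner of TLR2 for bacterial lipoproteins, and at the other end Tlr11 (0.33, SE 0.14) and Tlr5 (0.33, SE 0.14), which detect profilin and flagellin, did not pass.

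Of 25 measured transcription factors tied to the promoters of the family, Nfil3 rose, Irf1 fell and 23 did not pass, and the median was -0.01. Over all genes 1.69% passed in either direction. Irf1, an activator of Il12a and Il27 downstream of interferon, was at 9.85, 9.79, 9.96 and 9.84 in wild type and at 9.32, 8.96, 9.44 and 8.99 in transgenic arrays (difference -0.68, SE 0.13; limma adjusted p = 0.0330). Nfil3, a repressor of Il12b in myeloid cells, was at 9.46, 9.15, 8.97 and 9.13 in wild type and at 9.83, 10.17, 9.87 and 10.04 in transgenic arrays (difference 0.80, SE 0.13; limma adjusted p = 0.0203). Neither gene overlapped between groups. Irf1 did not pass without any 1 of 7 arrays, all but transgenic replicate 3 (adjusted p from 0.0529 to 0.10 in limma), and Nfil3 did not pass without wild-type replicates 2, 3 or 4 or transgenic replicate 2 (0.0525 to 0.0676).

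Factors at the edge of that list were Nfkb2, an NF-kB subunit (-0.48, SE 0.11; limma adjusted p = 0.0622), and Atf3, a stress-induced repressor (0.64, SE 0.18; limma adjusted p = 0.112). Irf8, which drives Il12b, was at -0.49 (SE 0.15; limma adjusted p = 0.161), with every transgenic array below every wild-type array. None of the 3 passed.

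Among 16 measured genes of a list drawn up as restraints on the family, Nfkbid fell and 15 did not pass. Over all genes 0.848% passed in the lower direction. Of the 16, 12 were below 0 (50.3% of all genes), and the median was -0.16. Nfkbid encodes a nuclear IkB protein that modulates NF-kB. It ran from 7.72 to 8.24 in wild type and from 7.14 to 7.35 in transgenic arrays, a difference of -0.74 (SE 0.14; limma adjusted p = 0.0280), and it did not pass without any 1 of 6 arrays, all but wild-type replicate 1 and transgenic replicate 4 (adjusted p from 0.0532 to 0.0802 in limma). The related Nfkbiz was at -0.64 (SE 0.14; limma adjusted p = 0.0591), Il10, which suppresses IL-12 production, was dim (4.47 and 4.79), and Tgfbr1 was at 0.29 (SE 0.14). Nuclear IkB proteins such as that of Nfkbiz can also activate NF-kB targets, so the list does not hold restraints alone. Its counts therefore give no direction of effect on the family.

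Genes that IL-12, IL-23 and IL-27 are known to induce in T and NK cells were listed as 13, of which 12 were measured. Il18r1, a chain of the IL-18 receptor, rose, from 5.97 to 6.73 in wild type to 7.88 to 8.54 in transgenic arrays (difference 1.94, SE 0.20; limma adjusted p = 0.00256), and 11 did not pass. Of all genes, 0.839% passed in the higher direction. The median of the list was -0.10. It turned to 1.12 when only genes with a mean of 6 or more were tested, which left Il18r1 and Prf1 (0.30, SE 0.24) alone. It turned to 0.30 when the genes below the median level were left out. Both filters remove dim members. Il22, Csf2 and Eomes, at the ends of the list, were dim in both groups (-0.77, -0.23 and 0.26), as was Ifng, the main product of IL-12 stimulated cells (4.72 and 4.44).

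The genes whose array profile lay nearest to that of Ebi3 were ranked by the root mean square (RMS) difference of log2 values, each centred on its mean over the 8 arrays, over the 7969 other genes whose mean reached 6. Atp6v0a1, a subunit of the vacuolar proton pump, was nearest (RMS difference 0.19, against 0.96 for Ebi3 about its own mean). Cd40 (0.32), Pias3 (0.33), Tlr13 (0.33) and Nans (0.34) followed. All 5 had negative differences, which the choice of a profile like that of Ebi3 implies. For Il12b, whose own RMS about its mean was only 0.22, the nearest were Ctsc (0.06), Thap3, Rora, Ube3c and Cmas (0.08 to 0.09), and with so little variation such closeness has little content.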

How the data were processed

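The data are 8 microarrays, 4 WT and 4 hBcl-2, grouped by the titles in the labels. Per the labels' protocols, 2.5 ng of RNA was amplified by reverse transcription, and the label was biotin. The deposited values are log2 signals for each probe set, and the submitters' processing notes name RMA and Partek. RMA brings the distributions of the arrays close together, so a shift of all genes would not be seen. They were not identical: transgenic replicate 4 had an SD over probe sets of 2.00 and a median of 5.15. The other arrays had SDs of 2.07 to 2.11 and medians of 5.045 to 5.10. Quantile normalization again moved the difference of Ebi3 to -1.71, of Il6st to -0.08 and of Il27 to -0.51. Software versions, probe set filters and a genome build were not given in the sources used here.

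Of 34390 probe sets, 23521 name 1 gene, 1814 several and 9055 none in the platform annotation. The first kind gave 22180 genes by the probe set with the highest mean. Differences, transgenic minus wild type, came from limma 3.58.1 in R 4.3.3 (lmFit, eBayes) on all genes with Benjamini-Hochberg adjustment at 0.05. Intervals are 95% intervals of that fit. Exact permutation tests used all 70 assignments. Code was tested on simulated data.

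The 9 genes and the lists were chosen with earlier results of these data known. Named were the 9 genes, Il23r, from each pathway list the genes past the threshold and the 2 highest and 2 lowest by statistic, and the 5 genes nearest to Ebi3 and to Il12b. Jak1, Jak2, Stat2, Stat3, Stat5a, Stat6, Pias3 in its list, Irf8, Ifng, Prf1 and the cell markers were added after their values were seen. Alternatives covered variance moderation, filters on dim genes, normalization, probe set choice, array weights, a replicate block, the threshold and leaving out each array. Promoters came from RefSeq. Same-numbered arrays were checked for pairing: the correlation of their deviations from the group means ran from -0.03 to 0.08, so they were not treated as pairs.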

Additional observations from a re-analysis of the deposited data

How the results depend on the processing

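Ebi3 was lower under each of its 20 alternatives, with differences from -2.003 to -0.99, and the count of family genes that fell was 1 in all but the fit without variance moderation, where it was 0 (adjusted p = 0.106 in limma for Ebi3). It was 1 without each array in turn, and no family gene was higher past the threshold under any of these settings. The log2 difference of Il12rb2 turned to -0.35, -0.05 and -0.02 without transgenic replicates 2 and 1 and wild-type replicate 3, within a range of -0.35 to 0.54 over the arrays left out. The change of the ratio of Il23a to Il12b was -0.131 with all arrays. It turned to 0.0628 and 0.0147 without transgenic replicates 1 and 2 (range -0.312 to 0.0628). Il23a was dim, so neither the sign nor the size of that change is settled. The ratio alternatives were chosen after seeing the data. The 188 lower and 186 higher genes became 19 and 16 without moderation, 92 and 95 with the replicate number as a block, 393 and 354 at a threshold of 0.1, and 24 and 33 at 0.01. Of the genes whose mean reached 6, 308 were lower, and with array weights 283 were higher. Leaving out 1 array gave 51 to 163 lower and 55 to 216 higher genes. The 7 pathway genes that fell became 0 without moderation, 12 over the genes whose mean reached 6, 2 with the replicate block and 2 to 5 with 1 array left out. The 3 that rose became 0 without moderation and 1 to 3 with 1 array left out. Fewer arrays lowered most counts by construction, and the cause of the other shifts was not tested. Same-numbered arrays share only a number, and 1 of the 4 wild-type arrays correlated best with the transgenic array of its own number. The block changed no call among the 9 genes, but with it Stat4 (adjusted p = 0.0682 in limma), Tyk2 (0.0722), Ptpn6 (0.123), Irf1 (0.0645), Nfkbid (0.0645) and Nfil3 (0.0632) did not pass. Signal near the dim level limits what Il12a, Il23a, Il12rb1 and Il23r can show.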
